A study of Sus scrofa with 6 samples.

Results

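Cohesin and condensin subunits were followed through 10 genes, the cohesin core genes SMC1A, SMC3, RAD21, STAG1 and STAG2 and the condensin I genes SMC2, SMC4, NCAPD2, NCAPG and NCAPH. They were found by name in the deposited table and made up 10 of its 31908 gene IDs, and the TPM (transcripts per 1000000) of the listed transcripts were added up for each. All 10 reached the filter of a mean of 1 TPM over the 6 libraries and were tested. The libraries came from IPEC-J2, an epithelial cell line from the small intestine of the pig. Cells of the CON group received PBS and those of the CDCA group received chenodeoxycholic acid, a primary bile acid, at 50 μM, each for 24 h. Each group had 3 libraries, and the comparison asks how the bile acid changes the transcriptome of these cells. The labels do not say whether the 3 libraries of a group came from separate cultures, so p-values measure the spread between these samples.

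Cohesin and condensin are ring-shaped ATPase complexes built on paired SMC (structural maintenance of chromosomes) proteins closed by a kleisin subunit. Cohesin holds sister chromatids together from DNA replication until anaphase and also extrudes chromatin loops throughout interphase, whereas condensin folds chromatin into compact mitotic chromosomes. Dividing cells of the intestinal epithelium need both complexes at each mitosis, and non-dividing cells still use cohesin to organise chromatin.

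The listed TPM summed to between 351770 and 366073 per library, out of the 1000000 that a complete TPM column holds, so a gene's value covers its listed transcripts and can miss others. The TPM carry no read counts, so the reads behind each gene's value are unknown and no counting error was computed; the library read totals that the study states were not used here. The mRNAs encoded by mitochondrial DNA took 13.8% to 15.0% of the TPM listed for CON libraries and 2.90% to 3.45% for CDCA libraries, a difference that bears on how TPM are scaled. Pearson's r of log2(TPM + 1) across tested genes, which are not independent replicates, was 0.972 to 0.980 between libraries of a group and 0.927 to 0.934 between groups. Of 8 epithelial markers, 7 were listed, with a summed level of 507 to 524 TPM in CON and 491 to 536 TPM in CDCA. EPCAM, KRT8, KRT18, KRT7 and TJP1 carried nearly all of that level, whereas CDH1 and CLDN7 were listed under 1 TPM. Within that sum, KRT7 fell from 78.5 ± 1.32 to 48.5 ± 2.81 TPM and EPCAM rose from 122 ± 3.74 to 160 ± 11.4 TPM (SD, n = 3), with FDR 7.4e-05 and 0.0015 by limma. KRT18 and TJP1 also rose, at log2 fold changes of 0.19 and 0.22 (FDR 0.013 and 0.022 by limma), but not with totals that left out the genes of mitochondrial DNA, at 0.041 and 0.068, and KRT8 was at -0.12 (FDR 0.178 by limma), but passed with those totals, at -0.27 (FDR 0.0067 by limma). All 7 mesenchymal markers were under 1 TPM, with LUM at 0 in every library, and their summed level was 1.35 to 1.83 TPM in CON and 1.00 to 1.15 TPM in CDCA. The 7 leukocyte and endothelial markers summed to 20.9 to 22.8 TPM in CON and 22.2 to 24.6 TPM in CDCA, mostly from LYZ, and PTPRC, which defines leukocytes, was at or under 0.01 TPM. CD68, a lysosomal protein abundant in macrophages, was listed at 0, 0 and 0.26 TPM in the CON libraries and at 5.33, 4.75 and 4.44 TPM in the CDCA libraries, and its part in the results on the subunits was not tested. PECAM1, an endothelial marker, was at 1.92 ± 0.242 TPM in CON and 1.22 ± 0.106 TPM in CDCA (SD, n = 3).

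The condensin I genes SMC2, SMC4 and NCAPH fell by more than 2-fold after CDCA treatment, whereas the cohesin core genes had smaller differences in mixed directions. NCAPD2 and NCAPG were also lower in CDCA, with differences that did not pass in every setting. The 5 condensin I genes had a median log2 fold change of -1.15, against -0.11 for the 5 cohesin core genes and 0.047 for all 8708 genes tested by limma on log2(TPM + 1). A gene was said to rise or fall where its Benjamini-Hochberg FDR was under 0.05, and it was called where the fold change was also over 2. Of the 10 subunits, 3 were called lower (SMC2, SMC4 and NCAPH), against 3.90% of all tested genes, and 0 were called higher, against 3.51%. Without the limit on the fold change, 7 of the 10 fell, against 23.9% of tested genes, and 1 rose, against 29.3%. The 7 include NCAPG, which passed the filter of 1 TPM only through the CON libraries and so adds little to the count. The highest CDCA library was below the lowest CON library for 7 of the 10, NCAPG again among them, against 27.8% of tested genes. The reverse held for 1, against 33.7%. In RNA from a whole culture, fewer cells of a type and less RNA per cell cannot be told apart.

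**Figure D1:**
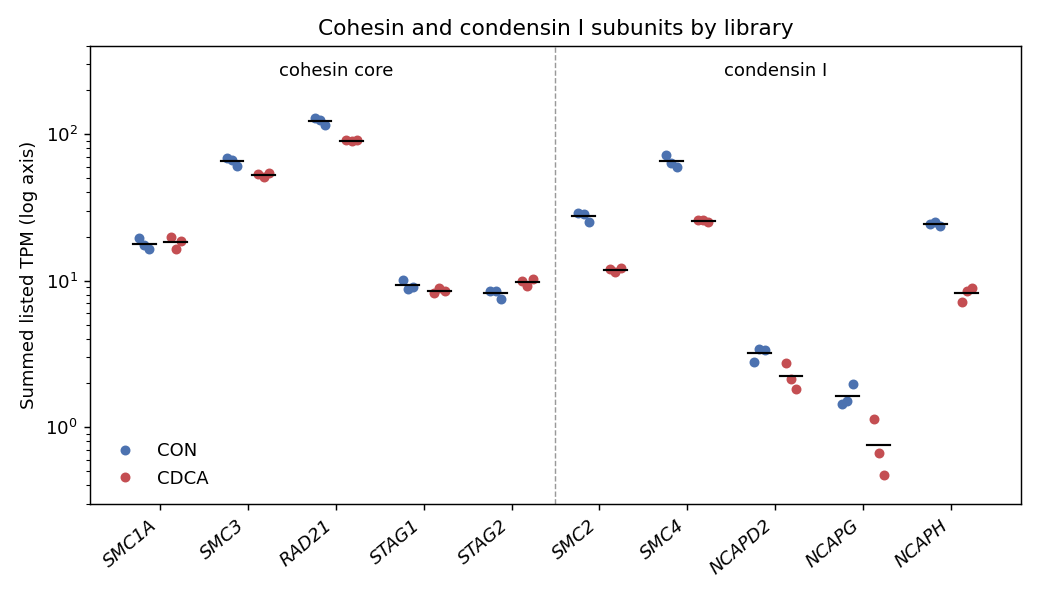
Summed listed TPM of each subunit on a log axis, with 1 point per library (3 CON, 3 CDCA) and a bar at the group mean. The CDCA points of SMC2, SMC4 and NCAPH lie far below the CON points, those of SMC3 and RAD21 lie slightly below, and those of SMC1A and STAG1 overlap the CON points.

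SMC2 and SMC4 form the ATPase heterodimer that condensin I shares with condensin II. SMC2 (ENSSSCG00000005403) measured 29.18, 28.65 and 25.06 TPM in CON, against 12.05, 11.43 and 12.15 TPM in CDCA. The groups lay far apart, and the lowest CON library was more than 10 TPM above the highest CDCA library. The mean fell from 27.6 ± 2.24 to 11.9 ± 0.390 TPM (SD, n = 3), a ratio of 0.430, with a log2 fold change of -1.15 (SE 0.07, 95% interval -1.32 to -0.98, FDR 3.7e-05 by limma). SMC4 (ENSSSCG00000011731) measured 72.58, 63.05 and 59.71 TPM in CON, against 25.93, 25.82 and 25.09 TPM in CDCA. The 3 CDCA libraries were nearly equal, and the SMC4 mean fell from 65.1 ± 6.68 to 25.6 ± 0.457 TPM (SD, n = 3). Its log2 fold change was -1.31 (SE 0.07, 95% interval -1.49 to -1.13, FDR 2.8e-05 by limma).

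NCAPH is the kleisin that closes the condensin I ring, and it had the largest log2 fold change of the 10 subunits in every fit. NCAPH (ENSSSCG00000008125) measured 24.41, 25.27 and 23.52 TPM in CON, against 7.16, 8.53 and 8.87 TPM in CDCA. The groups did not overlap, and the mean fell from 24.4 ± 0.875 to 8.19 ± 0.905 TPM (SD, n = 3), a ratio of 0.336. The log2 fold change was -1.47 (SE 0.08, 95% interval -1.67 to -1.27, FDR 2.8e-05 by limma).

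NCAPD2 and NCAPG are the HEAT-repeat subunits that bind the condensin I kleisin, and both had low listed levels. NCAPD2 (ENSSSCG00000000693) measured 2.79, 3.42 and 3.35 TPM in CON, against 2.72, 2.14 and 1.83 TPM in CDCA. The CDCA libraries lay below CON by a narrow margin, and the log2 fold change was -0.38 (SE 0.13, FDR 0.047 by limma). NCAPG (ENSSSCG00000008747) measured 1.45, 1.51 and 1.97 TPM in CON, against 1.14, 0.67 and 0.47 TPM in CDCA. Its mean fell from 1.64 ± 0.284 to 0.760 ± 0.344 TPM (SD, n = 3), so it passed the filter of 1 TPM only through the CON libraries, and its test carries little weight. The ratio of means was 0.462 for NCAPG, whereas its log2 fold change was -0.60 (SE 0.17, FDR 0.026 by limma), since the added 1 TPM shrinks the fold of a low gene. With a pseudocount of 0.1 TPM, the log2 fold change of NCAPG was -1.08 (FDR 0.033 by limma), which passed the limits of a call. Then 4 of the 10 subunits were called lower, where 505 of all 8708 tested genes were, against 340 as reported. The FDR of NCAPD2 and of NCAPG was over 0.05 in 4 of the 6 fits that left out a library (replicate 2 or 3 of either group), reaching 0.132 for NCAPD2 and 0.0755 for NCAPG.

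RAD21 and SMC3, which had the highest levels among the cohesin core genes, fell by less than the condensin I SMC genes. RAD21 is the mitotic kleisin of cohesin and the protein cut by separase at anaphase. RAD21 (ENSSSCG00000006014) measured 129.84, 125.80 and 115.51 TPM in CON, against 90.72, 89.59 and 90.57 TPM in CDCA. The CDCA libraries differed from each other by little more than 1 TPM, and all lay below CON. The mean went from 124 ± 7.39 to 90.3 ± 0.614 TPM (SD, n = 3), a ratio of 0.730, with a log2 fold change of -0.45 (SE 0.05, 95% interval -0.57 to -0.33, FDR 0.00041 by limma). SMC3 (ENSSSCG00000010625), an ATPase of the ring whose acetylation locks cohesin on DNA, measured 68.77, 66.26 and 61.01 TPM in CON, against 53.38, 51.00 and 54.24 TPM in CDCA. The groups did not overlap, and the log2 fold change was -0.30 (SE 0.05, 95% interval -0.43 to -0.17, FDR 0.0040 by limma). With totals that left out the genes of mitochondrial DNA, RAD21 was at -0.60 and SMC3 at -0.45 (FDR 0.00010 and 0.00077 by limma).

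SMC1A, the ATPase partner of SMC3 in mitotic cohesin, had no detectable change of its summed level. SMC1A (ENSSSCG00000012325) measured 19.47, 17.52 and 16.52 TPM in CON, against 19.85, 16.47 and 18.60 TPM in CDCA, so the libraries overlapped. Its log2 fold change was 0.035 (SE 0.09, 95% interval -0.18 to 0.25, FDR 0.764 by limma), and it turned to -0.015 when libraries were scaled to the same median ratio over genes (median-ratio scaling) and to -0.11 with totals that left out the genes of mitochondrial DNA.

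STAG1 and STAG2 are alternative subunits that bind RAD21, and a cohesin complex holds either of them. STAG1 (ENSSSCG00000011652) measured 10.07, 8.80 and 9.03 TPM in CON, against 8.23, 8.84 and 8.56 TPM in CDCA. The groups overlapped at the edge, with a log2 fold change of -0.11 (SE 0.07, 95% interval -0.28 to 0.06, FDR 0.237 by limma). STAG2 (ENSSSCG00000012642) measured 8.52, 8.49 and 7.52 TPM in CON, against 9.89, 9.19 and 10.25 TPM in CDCA. It was the subunit that rose, from 8.18 ± 0.569 to 9.78 ± 0.539 TPM (SD, n = 3), with a log2 fold change of 0.23 (SE 0.07, 95% interval 0.06 to 0.41, FDR 0.035 by limma). That rise did not hold in every setting. With totals that left out the genes of mitochondrial DNA, STAG2 was at 0.094 (FDR 0.346 by limma) while STAG1 fell, at -0.25 (FDR 0.022 by limma), and leaving out 1 library raised the FDR of STAG2 over 0.05 in 4 of 6 fits (CON replicates 2 and 3, CDCA replicates 1 and 3), to at most 0.109.

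**Figure D2:**
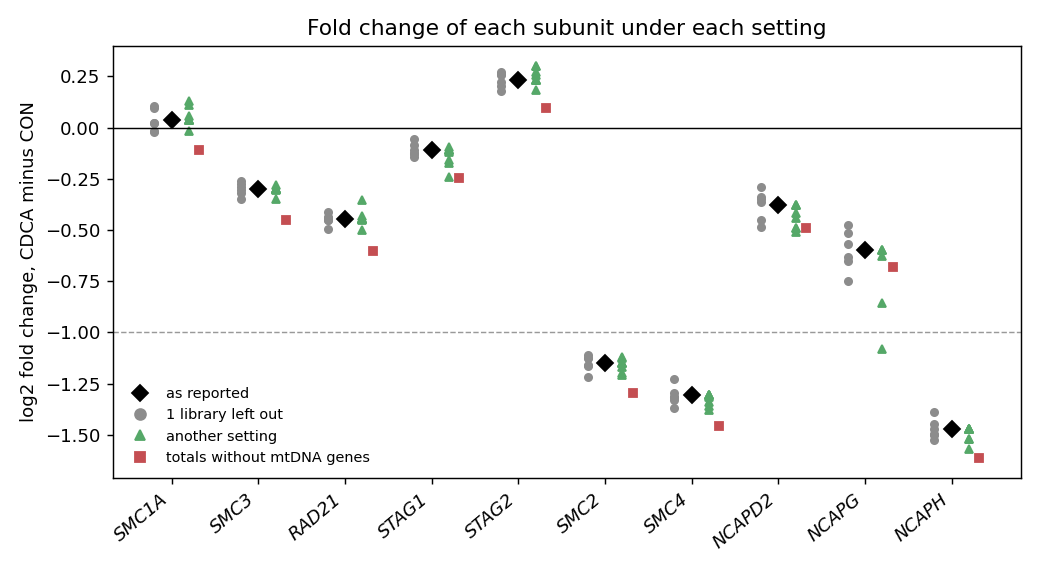
Log2 fold change of each subunit (CDCA minus CON) as reported, with 1 library left out, with another setting, and with totals that leave out the genes of mitochondrial DNA. SMC2, SMC4 and NCAPH lie under -1 in every fit, whereas SMC1A crosses 0 in 4 fits, among them median-ratio scaling and totals without the genes of mitochondrial DNA.

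Another scaling moved the subunits along with the other genes. With totals that left out the genes of mitochondrial DNA, the median log2 fold change of all tested genes went from 0.047 to -0.083, a shift of -0.13, and that of the condensin I genes went from -1.15 to -1.30. The split of calls over all tested genes was then 221 higher and 462 lower, against 306 higher and 340 lower as reported. SMC2, SMC4 and NCAPH were called lower under every alternative that was fitted.

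TPM are divided by transcript length, so the listed levels can be ordered between genes, although transcripts that are not listed could change the order. In CON the order from high to low was RAD21, SMC3, SMC4, SMC2, NCAPH, SMC1A, STAG1, STAG2, NCAPD2 and NCAPG, and the neighbours SMC3 and SMC4 overlapped between libraries, as did SMC2 and NCAPH. In CDCA the order was RAD21, SMC3, SMC4, SMC1A, SMC2, STAG2, STAG1, NCAPH, NCAPD2 and NCAPG, with STAG1 and NCAPH overlapping. SMC4 matched SMC3 in CON and lay clearly under it in CDCA, and SMC1A came to lie above SMC2 and NCAPH. The listed levels of partner subunits within a complex were far from equal, from 1.64 TPM for NCAPG to 65.1 TPM for SMC4 in CON.

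Ratios within a library do not depend on how libraries are scaled to each other. They are given with their spread and no test, since an exact permutation test of 3 libraries against 3 cannot go below 0.1. SMC2 and SMC4 held 53.6%, 52.3% and 52.2% of the summed TPM of SMC1A, SMC2, SMC3 and SMC4 in the CON libraries, against 34.2%, 35.6% and 33.8% in the CDCA libraries. SMC2 per SMC3 went from 0.422 ± 0.0109 to 0.225 ± 0.000971 (SD, n = 3), and SMC4 per SMC3 from 0.995 ± 0.0539 to 0.485 ± 0.0219. SMC2 per SMC4, the proportion within the condensin heterodimer, was 0.425 ± 0.0266 in CON and 0.464 ± 0.0208 in CDCA (SD, n = 3) and overlapped between the groups. NCAPH per SMC2, the kleisin against its SMC partner, was 0.886 ± 0.0511 in CON and 0.690 ± 0.0835 in CDCA (SD, n = 3), with no overlap. Within cohesin, 2 proportions with SMC3 did not overlap either. RAD21 per SMC3 was 1.89 ± 0.00527 in CON and 1.71 ± 0.0441 in CDCA (SD, n = 3). SMC1A per SMC3 was 0.273 ± 0.00951 in CON and 0.346 ± 0.0246 in CDCA. STAG2 made up 46.8% ± 2.01 of the STAG1 and STAG2 sum in CON and 53.3% ± 2.06 in CDCA (SD, n = 3), and the lowest CDCA library, at 51.0%, lay above the highest CON library, at 49.1%. NCAPH per NCAPH2, the kleisin of condensin I against that of condensin II, was 1.91 ± 0.0443 in CON and 1.22 ± 0.176 in CDCA (SD, n = 3).

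**Figure D3:**
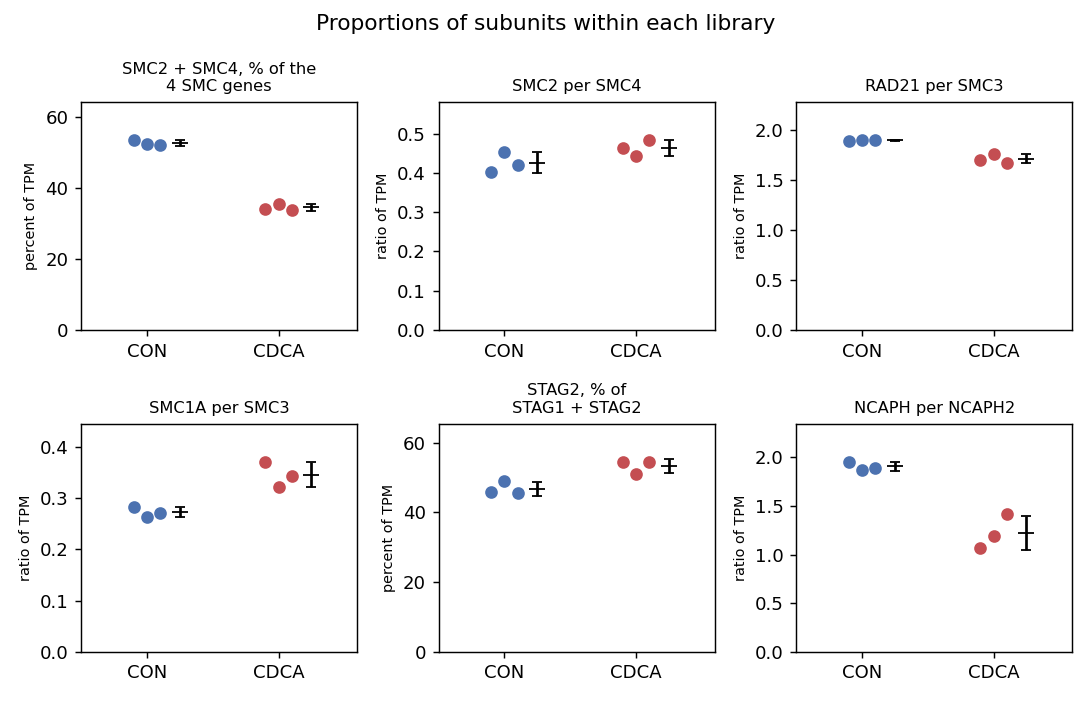
The 6 proportions of subunit TPM, each axis starting at 0, with 1 point per library and the group mean ± SD beside the points. The share of SMC2 and SMC4 among the 4 SMC genes drops from 52.7% to 34.5%, whereas SMC2 per SMC4 overlaps between CON and CDCA.

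The gene sums rest on 43 listed transcripts, numbered here by their mean TPM within each gene, since the table was used without transcript names. Of these, 20 had a mean of at least 1 TPM. A limma fit over 12204 listed transcripts was added after the gene values were seen. In it, 17 of the 20 had a negative and 3 a positive log2 fold change. The share of negative values over all transcripts was not computed, and SMC4 alone gave 7 of the 17. Of the 20, 8 were called lower, against 3.97% of transcripts tested, and 1 was called higher, against 4.0%. Both main SMC2 transcripts fell alike, with ratios of 0.424 and 0.453. The 7 tested transcripts of SMC4 all had lower means in CDCA, and 4 were called, with ratios between 0.277 and 0.371. RAD21 had 2 listed transcripts, with ratios of 0.777 and 0.672, and NCAPH rested on a single transcript.

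The overlapping SMC1A sum held transcripts that differed in opposite directions. SMC1A transcript 2 measured 2.28, 0.01 and 5.16 TPM in CON, against 10.32, 9.47 and 10.08 TPM in CDCA. SMC1A transcript 3 measured 9.35, 10.82 and 4.23 TPM in CON, against 1.46, 1.35 and 1.32 TPM in CDCA. The CDCA libraries were alike, whereas the CON libraries ranged widely and a low value of transcript 2 came with a high value of transcript 3. SMC1A transcript 2 rose by a log2 fold change of 2.003 (SE 0.61, FDR 0.039 by limma), and that FDR was over 0.05 in 9 of 13 other fits, up to 0.280; with a library left out, the value ranged from 1.28 to 2.59. SMC1A transcript 3 fell by 1.86 on the log2 scale (SE 0.30, FDR 0.0037 by limma), with an FDR of 0.052 when no filter was set. Transcript 2 was 14.3% ± 15.8 of SMC1A in CON and 54.6% ± 2.77 in CDCA (SD, n = 3), and transcript 3 was 45.1% ± 18.2 and 7.55% ± 0.575. Their sum, computed after these values were seen, was 11.63, 10.83 and 9.39 TPM in CON and 11.78, 10.82 and 11.40 TPM in CDCA. Reads that fit several transcripts of a gene are divided among them by an estimate in RSEM, and how that division bears on transcripts 2 and 3 was not tested.

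**Figure D4:**
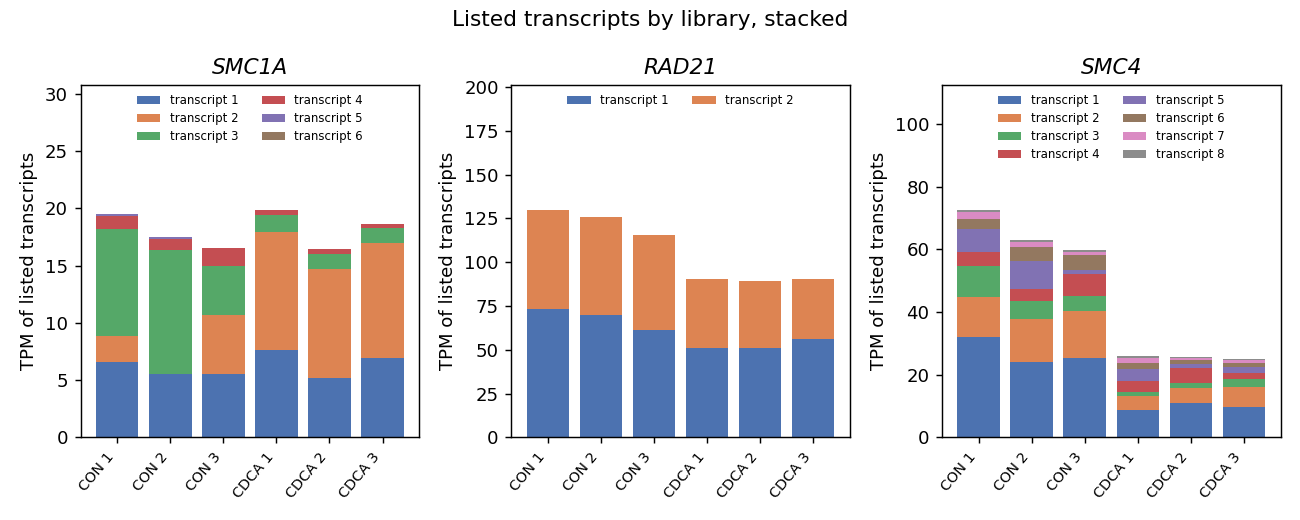
Stacked TPM of the listed transcripts of SMC1A, RAD21 and SMC4 in each of the 6 libraries. The SMC1A columns have like heights, with transcript 2 higher and transcript 3 lower in the CDCA libraries, and both vary widely between the CON libraries. The SMC4 columns fall from 59.71 to 72.58 TPM in CON to at most 25.93 TPM in CDCA.

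Condensin II uses SMC2 and SMC4 with its own kleisin and HEAT-repeat subunits and works in the nucleus already in prophase. Its own 3 genes had every CDCA library below every CON value, against 27.8% of tested genes, though NCAPG2 adds little to that count. NCAPD3 went from 10.05 ± 0.940 to 4.43 ± 0.191 TPM (SD, n = 3) with a log2 fold change of -1.02 (FDR 0.00011 by limma), a call that was lost without CON replicate 1 (-0.96) or CDCA replicate 2 (-0.99). NCAPG2 went from 2.31 ± 0.509 to 0.350 ± 0.161 TPM with a log2 fold change of -1.29 (FDR 0.00073 by limma). With a pseudocount of 0.1 TPM it was at -2.46. However, NCAPG2 passed the filter of 1 TPM only through the CON libraries, so its test carries little weight. The kleisin NCAPH2 fell from 12.8 ± 0.589 to 6.72 ± 0.450 TPM at -0.84 (FDR 0.00012 by limma) and was not called.

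The related SMC5/6 complex, which acts in DNA repair and the resolution of joined chromatids, had 3 genes that rose. Of its 9 genes, 7 were listed and 6 tested, and 3 of these 6 rose, against 29.3% of tested genes, while 0 fell, against 23.9%. SMC6 measured 2.81, 2.33 and 1.91 TPM in CON, against 8.60, 6.31 and 7.18 TPM in CDCA. Each CDCA library was more than 2-fold above the highest CON library, with a log2 fold change of 1.32 (SE 0.14, FDR 0.00036 by limma). Its partner SMC5 rose from 5.67 ± 0.252 to 9.44 ± 0.750 TPM (SD, n = 3), at 0.64 (FDR 0.00060 by limma). NSMCE1, which holds a RING domain, rose from 32.3 ± 2.55 to 41.4 ± 1.64 TPM at 0.35 (FDR 0.0042 by limma). With totals that left out the genes of mitochondrial DNA, NSMCE1 was at 0.20 (FDR 0.029 by limma). NSMCE2, NSMCE4A and SLF2 overlapped between the groups, with log2 fold changes of 0.20, 0.040 and 0.42, and SLF1 was under 1 TPM. SLF2 ranged from 0.19 to 0.76 with a library left out and passed without CDCA replicate 2 (0.76, FDR 0.0195 by limma).

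None of the tested genes that load cohesin on chromatin and release it passed the test as fitted without a replicate block. Of 6 genes, 5 were tested, and 0 had an FDR under 0.05 by limma, with 0 also at an unadjusted p under 0.05. Over all tested genes, 23.9% fell and 29.3% rose by that FDR. The loader NIPBL was at 6.84 ± 0.558 TPM in CON and 7.11 ± 0.425 TPM in CDCA (SD, n = 3), a log2 fold change of 0.049, which turned to -0.085 with totals that left out the genes of mitochondrial DNA. The release factor WAPL was at 0.43 (FDR 0.113 by limma), and its cofactors PDS5A and PDS5B at -0.28 and 0.37. These 3 values were imprecise: with a library left out, WAPL ranged from 0.24 to 0.58, PDS5A from -0.44 to -0.038 and PDS5B from 0.090 to 0.55. HDAC8, which deacetylates SMC3, was at -0.024, and the libraries of the 5 genes overlapped, where 27.8% of tested genes had all CDCA libraries below CON and 33.7% had them above. MAU2, the partner of NIPBL, was listed under 1 TPM.

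Genes that establish, protect and end cohesion fell in part. Of 8 genes, 6 were tested, of which 4 fell, against 23.9% of tested genes, and 3 were called lower, against 3.90%. CDCA5, or sororin, which protects cohesin from WAPL, fell from 8.08 ± 0.370 to 1.92 ± 0.155 TPM (SD, n = 3), at -1.64 (FDR 1.7e-05 by limma). SGO1, the shugoshin that shields centromeric cohesin, was at -1.09 (FDR 0.00011 by limma), and HASPIN, a histone H3 kinase of mitosis, at -1.17 (FDR 7.9e-05 by limma). SGO2 overlapped between the groups, at -0.66 (FDR 0.041 by limma), and with a library left out 4 of 6 fits (replicate 1 or 2 of either group) had an FDR over 0.05, up to 0.118. PTTG1, or securin, was at -0.60 (FDR 0.160 by limma) and ESCO1, an acetyltransferase for SMC3, at 0.26 (FDR 0.220 by limma). With a library left out, PTTG1 ranged from -0.91 to -0.34 and passed without CON replicate 2 (FDR 0.0378 by limma), and ESCO1 ranged from 0.11 to 0.41 and passed without CON replicate 1 (FDR 0.0490 by limma). ESCO2, the acetyltransferase of S phase, was not tested, with 1.15, 1.33 and 1.05 TPM in CON and 0.26, 0.02 and 0.27 TPM in CDCA, and the separase gene ESPL1 was listed at or under 0.12 TPM.

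**Figure D5:**
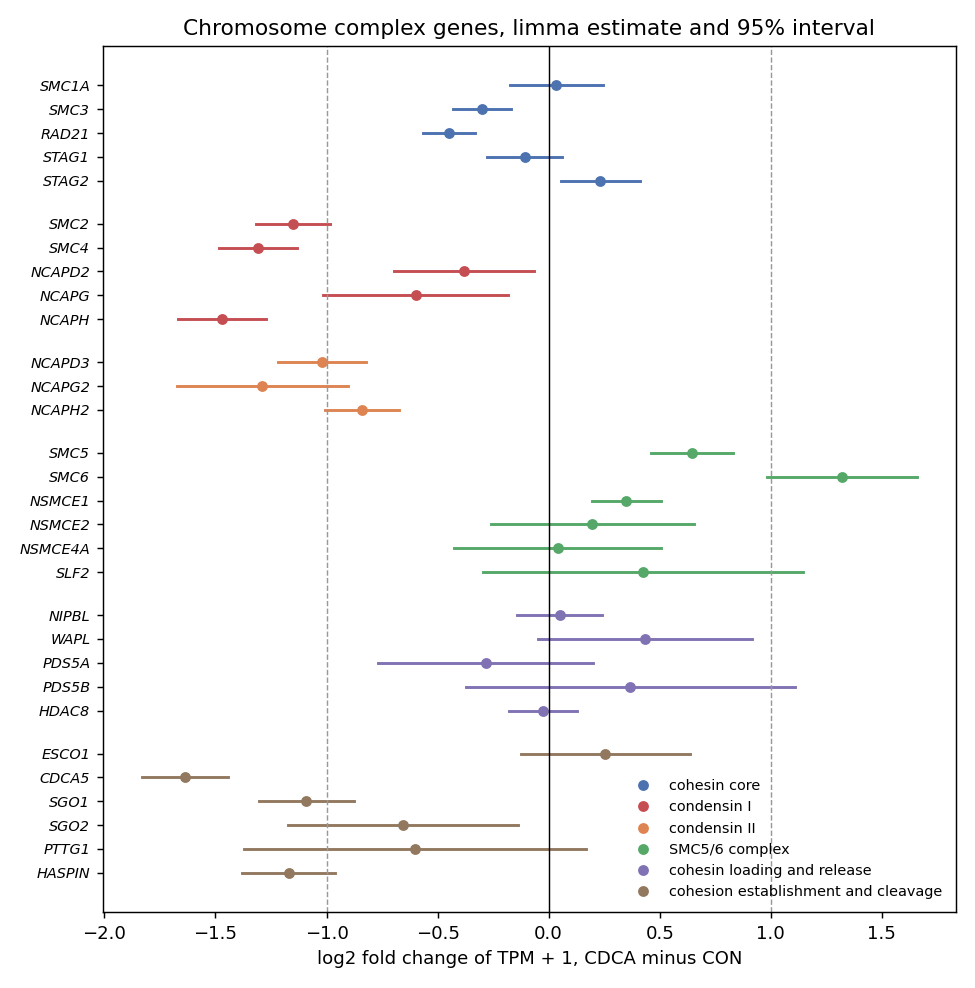
Limma estimates of the log2 fold change of TPM + 1 (CDCA minus CON) with 95% intervals for tested genes of 6 groups, with dashed lines at -1 and 1. Condensin I and II genes lie to the left of 0, SMC5, SMC6 and NSMCE1 to the right, and the genes of cohesin loading and release have intervals across 0, with the sign of SMC1A, NIPBL, HDAC8, NSMCE2 and NSMCE4A turning in other fits.

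The meiotic cohesin genes SMC1B, RAD21L1, REC8 and STAG3 were under 1 TPM and none was tested. Of 8 partners in chromosome architecture, 6 were tested and 4 fell, against 23.9% of tested genes, with 2 called lower, against 3.90%. MKI67, which coats mitotic chromosomes, fell from 17.3 ± 0.452 to 2.10 ± 0.262 TPM (SD, n = 3), at -2.56 (FDR 3.7e-06 by limma), and CENPF, a kinetochore protein, from 17.8 ± 3.03 to 4.33 ± 1.44 TPM, at -1.84 (FDR 0.00056 by limma). TOP2B, a type II topoisomerase, was at -0.38 (FDR 0.0088 by limma), with an FDR of 0.0616 when no filter was set. CTCF, which stops cohesin loop extrusion at its sites, measured 4.05, 4.12 and 5.28 TPM in CON, against 2.56, 1.72 and 3.52 TPM in CDCA. Its log2 fold change was -0.63 (FDR 0.033 by limma), with an FDR over 0.05 in 5 of the 6 fits that left out a library (any but CDCA replicate 3), up to 0.102. MCPH1, a regulator of condensin II, was at 0.025 and SMCHD1 at -0.19, with overlapping libraries; MCPH1 turned to -0.0173 with median-ratio scaling, and SMCHD1 passed at -0.32 (FDR 0.0465 by limma) with totals that left out the genes of mitochondrial DNA. TOP2A, the topoisomerase of mitotic chromosomes, was listed at or under 0.19 TPM in every library, and KIF4A, a chromokinesin, was under the filter at 1.25 ± 0.528 and 0.467 ± 0.0862 TPM (SD, n = 3).

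Genes of mitotic entry moved with condensin I. Of the 10 genes chosen, 9 were listed, 9 fell, against 23.9% of tested genes, and 8 were called lower, against 3.90%, with a median log2 fold change of -1.55. Their summed level was 320 to 349 TPM in CON and 112 to 119 TPM in CDCA. CDK1, the kinase that phosphorylates condensin, was at -1.62 and its cyclins CCNB1 and CCNB2 at -1.497 and -1.76. AURKA, AURKB and PLK1, mitotic kinases, were at -1.45, -2.20 and -1.495. FOXM1, a transcription factor of G2/M genes, was at -1.65, BIRC5, or survivin, at -1.55 and the checkpoint kinase BUB1 at -0.48. The limma FDR of these 9 genes was at most 0.00062. Their part in the fall of the condensin genes was not tested.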

How the data were processed

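The authors quantified 6 RNA-seq libraries with RSEM and deposited TPM values for 63041 listed transcripts. The submitters' processing notes name Bowtie 0.12.2 and mm10, a mouse build, beside pig gene IDs; the annotation release is not given in the sources used here. TPM were summed per gene ID, and the 8708 gene IDs whose mean reached 1 TPM were compared on the log2(TPM + 1) scale by limma 3.58.1 under R 4.3.3 (eBayes, trended), with Benjamini-Hochberg adjustment over these. A gene was called at an FDR under 0.05 and a log2 fold change over 1 in size. The study's own test was one for counts and was not used on TPM. The steps were tested on simulated data. Tables were joined with pandas 2.3.3 under Python 3.11.15. The members and lists were chosen with earlier results of these data known; all members and every tested gene of the lists of complexes, partners and mitotic entry were named. Alternatives were another pseudocount, 2 other filters, 3 scalings, the highest listed transcript, a replicate block, no trend, and each library left out. The transcript fit and a sum of transcripts of at least 1 TPM were added after seeing the data. Promoters and proteins were not analysed here.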

Additional observations from a re-analysis of the deposited data

How the results depend on the processing

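The reads behind each TPM value are unknown, so precision rests on the 3 libraries of each group. Over the 10 subunits, 156 values were refitted, of which 1 changed its call (NCAPG, with a pseudocount of 0.1 TPM) and 4 changed sign; over 43 other listed genes, 669 were refitted, with 2 calls and 13 signs changed. Same-numbered libraries did not deviate together (r -0.035, -0.092 and -0.051), no library correlated best with its own number, and the numbers do not pair them; with the replicate block, STAG2 (0.23, limma FDR 0.083), NCAPD2 (-0.38, 0.0988) and NCAPG (-0.60, 0.061) no longer passed, nor did SGO2 (-0.66, 0.0852), WAPL passed (0.43, 0.0144), 0 subunits rose, and no subunit changed its call. Without a filter, STAG2 (0.23), NCAPD2 (-0.38) and NCAPG (-0.60) did not pass, nor did SGO2, CTCF, TOP2B, KRT18 and TJP1. STAG2 also missed with median-ratio scaling (0.19) and with the highest listed transcript (0.30), as SGO2 (-0.87) and TJP1 (0.20) did with the latter. NCAPD2 (-0.44) and CTCF (-0.73) missed with TPM rescaled to 1000000. Totals without the genes of mitochondrial DNA gave STAG1 -0.25, SMCHD1 -0.32 and KRT8 -0.27, which now passed. SMC1A (-0.11) did not pass with those totals. The same totals gave STAG2 0.094, NIPBL -0.085, NSMCE4A -0.10, MCPH1 -0.10 and SMC1A transcript 1 -0.0022. Median-ratio scaling gave SMC1A -0.015, NSMCE4A -0.0090 and MCPH1 -0.0173, and the highest listed transcript gave SMCHD1 0.025. In these settings, 0 subunits rose, except that 1 did with TPM rescaled. With a library left out, SMC1A ranged from -0.023 to 0.10, STAG2 from 0.18 to 0.27, NCAPD2 from -0.49 to -0.29, NCAPG from -0.75 to -0.48, HDAC8 from -0.042 to 0.0049, NSMCE2 from -0.015 to 0.35, NSMCE4A from -0.16 to 0.19 and MCPH1 from -0.032 to 0.11, and 0 to 1 subunits rose. Genes called higher over all tested were 509 with a pseudocount of 0.1 TPM, 197 with a filter at 5 TPM and 523 with rescaled TPM, against 306. Those called lower were 505, 238 and 481 in the same settings, against 340. The genes tested there were 8708, 5209 and 10947. The filter at 5 TPM left out NCAPD2 and NCAPG. The causes of these changes were not tested.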
